A study of Mus musculus with 9 samples.

Results

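The comparison describes Lgr5+ basal cells of the mouse mammary gland set against luminal cells, across all genes measured. Its members are the 6 of 9 arrays whose titles name Lgr5+ basal or luminal cells, with 3 arrays in each group and 1 array of each group from each of 3 numbered pools. The tests below do not pair the arrays by pool. The Lgr5+ basal cells and the luminal cells were sorted by flow cytometry from mammary glands of virgin mice of the C57BL/6 strain, 10 weeks old, bearing the allele Lgr5-GFP-IRES-CreERT2. The 3 remaining arrays, of Lgr5- basal cells, come from mice of the same strain, allele and age. All groups therefore share the knock-in allele, in which the Lgr5 locus drives a green fluorescent protein and an inducible Cre, and the labels list no tamoxifen or other agent. The sources used here name neither sort markers nor gates nor how many mice made up a pool. Unless a block is named, the p-values below rest on the spread among arrays of the same sort, which came from different pools. They do not measure the spread of the difference within pools.

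The mammary epithelium is a bilayer. The outer, basal layer consists mainly of contractile myoepithelial cells that rest on the basement membrane and squeeze milk out of the alveoli under oxytocin, and it also holds cells that regrow a gland on transplantation. The inner, luminal layer lines the ducts and contains hormone-sensing cells with oestrogen and progesterone receptors and hormone receptor-negative cells from which milk-secreting alveoli form. Lgr5 is a receptor for R-spondins, secreted proteins that strengthen Wnt signalling, and is itself a Wnt target gene.

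RNA was measured on whole-genome bead arrays, and all levels below are normalized log2 intensities. Between 15235 and 16755 of 45281 probes were detected on the 6 arrays, and 12148 genes were detected on enough arrays to be tested. Pearson's r between arrays, taken over genes, was 0.968 to 0.984 among Lgr5+ basal arrays, 0.967 to 0.982 among luminal arrays and 0.786 to 0.827 for arrays of different groups. A pair of arrays stood apart. Luminal replicate 2 was the highest luminal array for 249 (68.2%) of the 365 genes that were at least 8-fold higher in Lgr5+ basal cells, and its summed intensity over 20 smooth muscle genes was 17.2% of the Lgr5+ basal mean, against 9.7% and 8.41% on luminal replicates 1 and 3. Lgr5+ basal replicate 2 was the highest Lgr5+ basal array for 162 (64.8%) of the 250 genes at least 8-fold lower there, and had the highest level of endothelial genes of the 6 arrays. Over all 3007 genes called higher, luminal replicate 2 was the highest luminal array for 38.7%. Over all 2955 called lower, Lgr5+ basal replicate 2 was the highest of its group for 38.2%. Values without these arrays are given below for some genes and lists only. What part the arrays played in the size of single differences was not tested. In bulk samples such as these, fewer cells of a type and less RNA per cell cannot be told apart.

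In the linear model, 5962 of the 12148 genes (49.1%) differed between Lgr5+ basal and luminal cells at an adjusted p under 0.05, 3007 of them (24.8%) higher and 2955 (24.3%) lower in Lgr5+ basal cells. Of these, 3493 differed by at least 2-fold, and the median difference over all tested genes was -0.02. The arrays of the 2 groups did not overlap for 6658 genes (54.8%), 5702 of which passed the test. Since so many genes changed, the counts in the gene lists below are read against 24.8% and 24.3%. The lists were chosen with earlier results of these data known, and 33 of the 38 had a larger share called than 49.1%. An excess over all genes therefore does not by itself set a list apart. Some genes, such as Lgr5, Col17a1 and Ccnd1, belong to several lists and are counted in each. In 717 of the higher genes the probe was not detected on any luminal array, and in 336 of the lower genes it was not detected on any Lgr5+ basal array. The 717 passed the detection filter only through basal arrays, and the 336 only through luminal or Lgr5- basal arrays. Their direction, also within the lists below, was thus partly set by the filter. Only a bound is known for such genes, and the fold given for them, preceded by "at least", is set against the lowest signal called detected on each array.

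**Figure D1:**
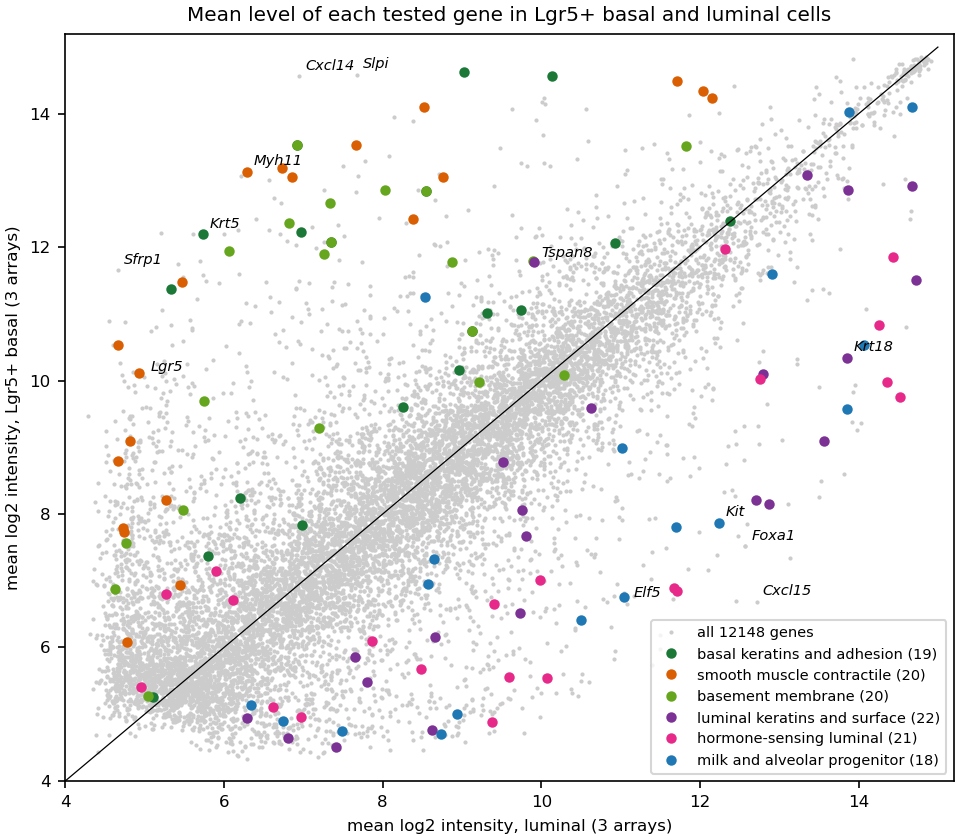
Mean normalized log2 intensity of each of the 12148 tested genes in luminal cells (x axis) and Lgr5+ basal cells (y axis), 3 arrays each, with the members of 6 gene lists in colour and the number of tested members in brackets. The solid line marks equal means. Smooth muscle, basal keratin and basement membrane genes lie mostly above the line, and luminal keratin, hormone-sensing and milk genes mostly below it.

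The largest difference in favour of Lgr5+ basal cells, clone and predicted-gene names left out, was that of Cxcl14. Cxcl14, a chemokine of epithelia, had 14.52, 14.55 and 14.62 on the Lgr5+ basal arrays, against 6.32, 7.75 and 6.75 on the luminal arrays, a log2 difference of 7.62 (SE 0.296, adjusted p = 2.89e-08). All Lgr5+ basal arrays lay far above every luminal array, at up to 86.2% of the array maximum. Col14a1, a collagen of fibril surfaces, was at least 104-fold higher (adjusted p = 1.05e-08), and Sfrp1, a secreted Wnt antagonist, at least 70.7-fold (adjusted p = 9.82e-09). Slpi, a secreted protease inhibitor with antimicrobial activity, had 14.63, 14.54 and 14.60 in Lgr5+ basal cells, against 6.98, 8.98 and 7.07 in luminal cells (6.91, adjusted p = 3.72e-07). Igfbp3, which binds insulin-like growth factors, followed with a difference of 6.86. The 20 largest among these also held the hemidesmosome collagen Col17a1 (6.61), the secreted peptide precursor Ecrg4 (6.58), the gelatinase Mmp2 (6.44), the anthrax toxin receptor Antxr1 (6.32), Aebp1, a matrix-associated carboxypeptidase-like protein (6.21), the secreted glycoprotein Dkk3 (6.10), Ism1 (6.09), the matrilin Matn4 (6.08) and the P-cadherin gene Cdh3 (6.05). Ecrg4, Antxr1, Rasl12, Ism1, Matn4 and Cdh3 were each detected on 1 of 3 luminal arrays, so their luminal level lay near background. A probe named ODZ2 in the table was at least 41.8-fold higher. Rasl12, a small GTPase, differed by 6.09 on the probe used, while its second probe differed by 0.91 (adjusted p = 0.097 over probes). The second Aebp1 probe differed by 1.78 (adjusted p = 0.000593 over probes).

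The largest difference in favour of luminal cells, with the same names left out, was that of Cxcl15. Cxcl15, known as lungkine, had 6.13, 6.94 and 6.98 in Lgr5+ basal cells, against 12.78, 12.74 and 12.62 in luminal cells (log2 difference -6.03, SE 0.265, adjusted p = 4.8e-08). The luminal arrays were close together and did not overlap with the Lgr5+ basal arrays. Dmbt1, a scavenger protein of mucosal surfaces, had 5.95, 8.39 and 7.69, against 12.90, 12.82 and 13.69 in luminal cells (-5.80, adjusted p = 6.38e-06). The cytochrome P450 gene Cyp3a57 (-5.65), the haemoglobin scavenger Hp (-5.52), the nuclear pore gene Nup210 (-5.31), the surface protein Ly6d (-5.22), the uroplakin Upk3a (-5.11), the fatty acid receptor Ffar4 (-5.10), Dkkl1 (-5.07), the transcription factor Foxa1 (-5.05), the acyltransferase Mboat1 (-5.04), arginase Arg1 (-5.02), the iodide transporter Slc5a5 (-5.02), the tight junction protein cingulin (Cgn, -5.01), the transporter Slc46a3 (-5.0), the chaperone cofactor Dnajc12 (-4.98), Tlcd4 (-4.96) and the mucin Muc13 (-4.94) were also among the 20 largest, as was a probe named ABP1 in the table (-5.25). Dkkl1, Arg1 and Cgn were each detected on 1 of 3 Lgr5+ basal arrays. The transcription factor Msc was at least 32.6-fold lower in Lgr5+ basal cells (adjusted p = 9.82e-09), detected on none of their arrays and at 10.43, 10.47 and 10.47 on the luminal arrays.

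The groups carried the markers of their labels. Among 19 tested basal keratin and adhesion genes, 17 were higher, 0 lower and 2 (Itga2 and Plec) did not pass, with a median difference of 1.70. Krt5, a keratin of basal epithelia, had 12.12, 12.19 and 12.26 in Lgr5+ basal cells, against 5.44, 6.91 and 4.85 in luminal cells, where it was detected on 1 of 3 arrays (6.46, adjusted p = 3.57e-07). Krt14, its partner, had 14.79, 14.42 and 14.50, against 8.91, 12.07 and 9.42 (4.44, adjusted p = 0.000167). Luminal replicate 2 was the highest luminal array for both keratins, and the Krt14 probe reached 91.5% of the array maximum. Cdh3, a cadherin of basal cells, had 11.51, 11.25 and 11.38, against 5.17, 5.43 and 5.38, detected on 1 of 3 luminal arrays (6.05, adjusted p = 9.82e-09), and its other 3 probes differed by 5.72, 4.08 and 1.40. Laminin chains that anchor basal cells were higher as well, Lama3 by 4.73 and Lamb3 by 4.30, with every Lgr5+ basal array above every luminal one.

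Transcription factors linked to the basal state changed mostly in the same direction. Of 24 tested, 20 were higher, 1 lower and 3 did not pass (median 1.44, 0.94 without background correction). Trp63, which basal epithelia need to form, had 12.66, 12.53 and 12.81 in Lgr5+ basal cells, against 5.91, 7.95 and 6.30 in luminal cells (5.95, adjusted p = 7.14e-07). Snai2, a repressor of epithelial genes studied in mammary stem cells, had 10.56, 10.46 and 11.20, against 4.75, 5.93 and 4.56, detected on 1 of 3 luminal arrays (5.66, adjusted p = 2.53e-07). On both genes the Lgr5+ basal arrays were alike and luminal replicate 2 stood above the other luminal arrays. Mef2c, a partner of muscle gene regulators, was at least 6.74-fold higher and Bcl11b, a zinc finger repressor, at least 11-fold, although 2 further Bcl11b probes differed by only 0.75 and 0.57 (adjusted p = 0.0171 and 0.0635 over probes). Tead1, which binds DNA for Yap, differed by 2.72 and the immediate-early factor Egr2 by 3.40. Sox9, known in basal and luminal progenitors alike, was the member that ran the other way, with 13.15, 12.88 and 12.95 in Lgr5+ basal cells and 13.84, 14.04 and 13.68 in luminal cells (-0.86, adjusted p = 0.00107).

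**Figure D2:**
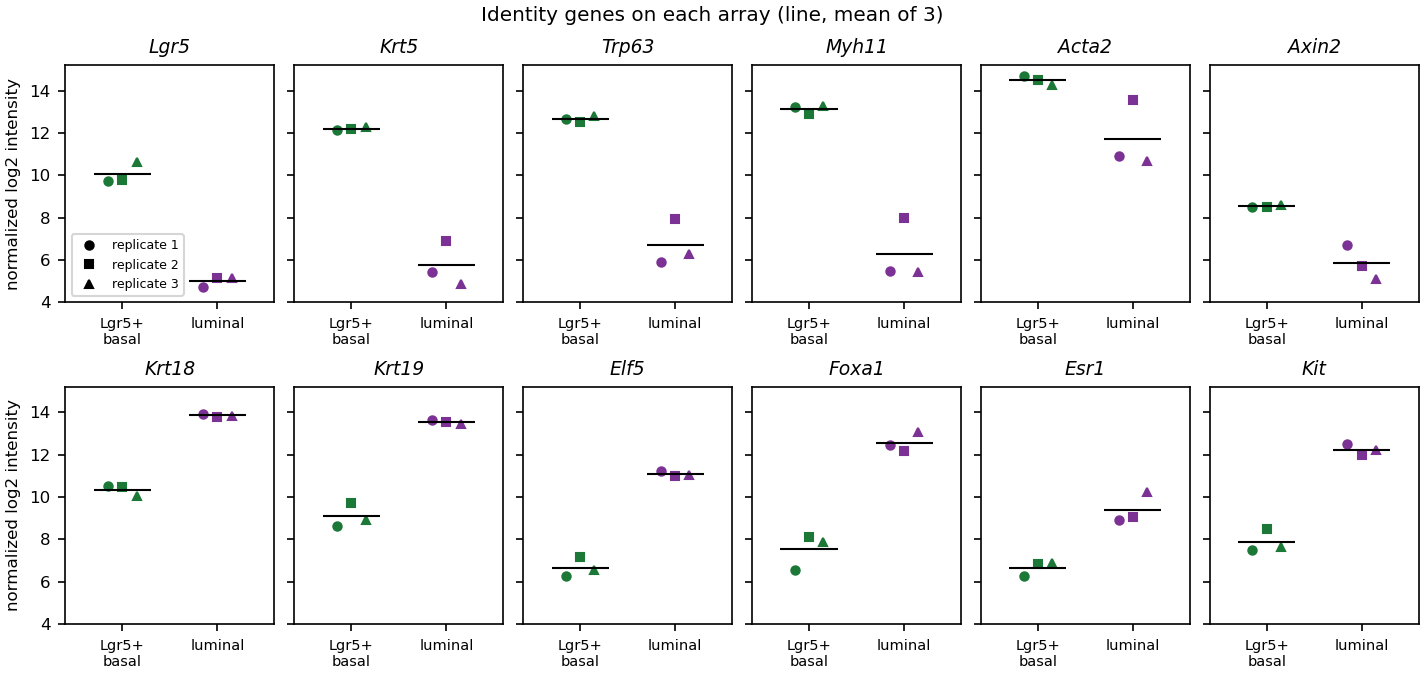
Normalized log2 intensity of 12 identity genes on each array, with Lgr5+ basal arrays on the left and luminal arrays on the right of each panel, symbols for the replicate and lines for group means. Lgr5, Krt5, Trp63, Myh11, Acta2 and Axin2 are higher on every Lgr5+ basal array, Krt18, Krt19, Elf5, Foxa1, Esr1 and Kit are higher on every luminal array, and luminal replicate 2 lies above the other luminal arrays for Krt5, Trp63, Myh11 and Acta2.

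The smooth muscle programme gave the most uniform list. All 20 tested genes of the contractile apparatus were higher in Lgr5+ basal cells (100%, against 24.8% of all genes), also without luminal replicate 2, without Lgr5+ basal replicate 2 and without both. Of 24 listed genes 20 could be tested. Among these, 7 were undetected on every luminal array and passed the detection filter only through basal arrays, so the 100% is partly set by the filter. The median difference was 4.21, 3.82 with undetected genes at their bounds and 2.75 without background correction. Myh11, the smooth muscle myosin heavy chain, had 13.23, 12.89 and 13.29 in Lgr5+ basal cells, against 5.46, 8.0 and 5.43 in luminal cells (6.84, SE 0.553, adjusted p = 2.32e-06). Myl9, a myosin regulatory light chain, had 12.86, 13.16 and 13.56, against 6.08, 8.34 and 5.78 (6.46, adjusted p = 2.72e-06). The actin Actg2 had 12.87, 13.35 and 12.93, against 5.75, 9.45 and 5.39 (6.19, adjusted p = 0.000107). Luminal replicate 2 was the highest luminal array for all 3 genes. Acta2, smooth muscle actin, had 14.69, 14.51 and 14.26, against 10.89, 13.56 and 10.68 (2.78, adjusted p = 0.00285), with the probe at up to 80.5% of the array maximum. The 4 other Acta2 probes differed by 2.00, 5.74, 5.55 and 5.77, so the size of its difference depends on the probe. Mrvi1, which regulates calcium release, was at least 32.7-fold higher, and the actin nucleator Lmod1 at least 12.1-fold. Smtn (4.30), the actin cross-linker Flna (4.04) and the intermediate filament gene Des (1.48) completed the genes named by rule. The list's median level was 11.90 to 12.03 in Lgr5+ basal cells, 12.02 to 12.17 in Lgr5- basal cells and 5.27 to 7.21 in luminal cells.

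Genes of the contractile apparatus are classic targets of serum response factor, which binds the CArG box, and their promoters are shown because the whole list was higher together. RefSeq (GRCm38.p6) gave a promoter of 300 bases, 250 before and 50 after the start, for 16 of the 20 genes. A CArG box with at most 1 G or C among its 6 central bases, which reads the same on both strands, was found in the promoters of 3 genes, Acta2 (chr19:34255324-34255623, minus strand), Myl9 (chr2:156775214-156775513, plus strand) and Synm (chr7:67759693-67759992, minus strand). Their sequences run 5′ to 3′ with the matches in capitals, and they were chosen for the match after the values were seen.
Acta2: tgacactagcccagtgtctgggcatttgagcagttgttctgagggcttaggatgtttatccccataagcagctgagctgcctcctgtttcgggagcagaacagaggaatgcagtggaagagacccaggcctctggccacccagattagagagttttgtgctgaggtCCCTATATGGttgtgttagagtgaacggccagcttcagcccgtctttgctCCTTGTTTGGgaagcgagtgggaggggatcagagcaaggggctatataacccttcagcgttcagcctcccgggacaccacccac
Myl9: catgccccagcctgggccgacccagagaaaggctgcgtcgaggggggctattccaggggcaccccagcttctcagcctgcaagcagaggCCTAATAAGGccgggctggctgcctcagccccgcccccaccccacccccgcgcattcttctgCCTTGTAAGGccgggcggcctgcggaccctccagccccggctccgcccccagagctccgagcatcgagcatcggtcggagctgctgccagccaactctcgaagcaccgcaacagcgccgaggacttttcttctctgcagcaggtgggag
Synm: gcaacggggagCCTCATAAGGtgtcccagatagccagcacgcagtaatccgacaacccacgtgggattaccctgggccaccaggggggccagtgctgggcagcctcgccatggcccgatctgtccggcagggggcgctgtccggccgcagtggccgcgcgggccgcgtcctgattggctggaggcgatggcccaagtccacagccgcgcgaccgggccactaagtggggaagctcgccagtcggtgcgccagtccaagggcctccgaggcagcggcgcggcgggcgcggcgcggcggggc
Counted from +1 at the start, the matches begin at -84 and -34 in Acta2, at -161 and -99 in Myl9 and at -239 in Synm. By promoter, the same form was present in 15.8% for the smooth muscle genes, against 9.98% of all 32851 promoters in the table. By gene, it was present for 18.8% of the smooth muscle genes, 22.2% of the basal keratin and adhesion genes, 21.4% of the tight junction and polarity genes and 10.9% of tested genes. Among genes at least 8-fold higher in Lgr5+ basal cells 14.2% held it, and among genes at least 8-fold lower 11.7%. For the other 13 smooth muscle genes the letters are not in this window. Synm, an intermediate filament protein, was at least 24.4-fold higher in Lgr5+ basal cells.

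Receptors and messengers that set contraction were mixed. Of 17 tested, 10 were higher, 4 lower and 3 did not pass (median 1.82, 1.25 at the bounds and 0.53 without background correction). Oxtr, the oxytocin receptor through which milk ejection is triggered, had 6.48, 6.91 and 7.86 in Lgr5+ basal cells and was not detected on any luminal array, so it was at least 2.97-fold higher (adjusted p = 0.000165). Prkg1, a cGMP-dependent kinase that relaxes smooth muscle, had 10.98, 11.05 and 11.04, against 6.37, 7.40 and 6.00 (4.44, adjusted p = 6.94e-07). The potassium channel subunit Kcnmb1 (at least 4.71-fold) and the endothelin receptor Ednrb (2.60) were higher. The angiotensin receptor Agtr1a was on the luminal side, with 7.02, 7.69 and 7.44 in Lgr5+ basal cells and 12.41, 11.58 and 12.64 in luminal cells (-4.83, adjusted p = 1.99e-07). The adrenergic receptor Adra2a (-2.39), the endothelin peptide Edn1 (-1.50) and the kinase Rock2 (-1.48, but -0.52 with an adjusted p of 0.28 on its second probe) were lower too.

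Genes that define the inner layer were lower in Lgr5+ basal cells. Of 22 luminal keratin and surface genes, 20 were lower, 1 higher and 1 (Cd81) did not pass, with a median of -2.24 (-2.06 at the bounds, -1.28 without background correction). Krt18 had 10.50, 10.48 and 10.06 in Lgr5+ basal cells, against 13.95, 13.80 and 13.82 in luminal cells (-3.51, adjusted p = 6.21e-08), and Krt19 differed by -4.46 (adjusted p = 1.64e-07). Krt8, the partner of Krt18, had 12.86, 12.99 and 12.91, against 14.69, 14.57 and 14.75 (-1.75, adjusted p = 2.3e-06), on a probe that reached 89% of the array maximum. These keratins were thus well detected on the Lgr5+ basal arrays. Over the list, summed intensity there was 24.7%, 28.6% and 26.9% of the luminal mean. Epcam, an adhesion protein used to sort luminal cells, was not detected on any Lgr5+ basal array and was at least 1.82-fold lower (adjusted p = 0.0007). Prom1, a protein of apical protrusions, was at least 3.96-fold lower, the tetraspanin Tspan1 at least 9.17-fold, and the protease Tmprss2 had a difference of -4.49. Krt23 was the member on the basal side, with 11.60, 11.99 and 11.74 against 10.27, 10.37 and 9.06 (1.88, adjusted p = 0.000477).

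Tight junction and polarity genes were lower in 13 of 20 cases, higher in 1 and not past the test in 6 (median -1.42, -0.87 without background correction). Claudins seal the space between epithelial cells. Cldn3 had 8.17, 8.83 and 7.98 in Lgr5+ basal cells, against 12.48, 12.14 and 12.28 in luminal cells (-3.97, adjusted p = 1.68e-07), and Cldn10 differed by -3.93 (adjusted p = 6.77e-08). Rab25, a GTPase of apical recycling, differed by -3.24. Cldn5, the endothelial claudin, was higher by 1.96 (adjusted p = 0.0251), with 8.60, 9.59 and 6.80 in Lgr5+ basal cells and 6.02, 7.47 and 5.62 in luminal cells. The groups overlapped for Cldn5, and its call was lost when 1 array was left out, either Lgr5+ basal replicate 1 or 2 (adjusted p = 0.0734 and 0.0976) or luminal replicate 1 or 3 (0.0782 and 0.0854). The junction scaffold Tjp1 (0.28), chosen after its value was seen, did not pass.

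Of 25 tested transcription factors of the luminal layer, 13 were lower, 4 higher and 8 did not pass (median -0.74, -0.30 without background correction). Elf5, which drives alveolar development, had 6.27, 7.15 and 6.55 in Lgr5+ basal cells, against 11.24, 10.97 and 11.04 in luminal cells (-4.43, adjusted p = 1.62e-07). Foxa1, a cofactor of the oestrogen receptor, had 6.57, 8.11 and 7.89, against 12.46, 12.17 and 13.08 (-5.05, adjusted p = 1.05e-06). The groups lay several log2 units apart on both genes. Grhl1, a factor of epithelial barriers, differed by -4.05, while Gata3, which maintains luminal fate, was high in both groups and differed by -1.03 (adjusted p = 0.00632), with 10.82, 10.85 and 11.46 against 11.98, 11.77 and 12.47. Tfap2c (1.97), Cebpb (1.21), Sox10 (0.83) and Id2 (2.16) were higher in Lgr5+ basal cells. The other Id2 probes differed by 0.57 and 0.24 (adjusted p = 0.064 and 0.53 over probes), and Sox10 did not pass within pools 1 and 2 alone (0.53, adjusted p = 0.062) or with median centring (0.81, adjusted p = 0.0536).

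Both luminal programmes were lower. Of 21 hormone-sensing genes, 16 were lower, 2 higher and 3 did not pass (median -2.75). The oestrogen receptor Esr1 had 6.26, 6.81 and 6.86 in Lgr5+ basal cells, against 8.92, 9.04 and 10.24 in luminal cells (-2.75, adjusted p = 0.000157). The progesterone receptor Pgr had 5.12, 5.92 and 6.01, detected on 2 of 3 arrays, against 8.45, 8.43 and 8.58 (-2.81, adjusted p = 3.31e-06). Prlr, the prolactin receptor, had 9.18, 10.38 and 9.68, against 14.43, 14.55 and 14.57 (-4.77, adjusted p = 1.85e-07). Of its 5 other probes, 4 differed by -2.61 to -5.34 and 1 by 0.00. Areg, the growth factor through which oestrogen drives duct growth, had 9.69, 10.69 and 9.56, against 14.31, 14.47 and 14.31 (-4.38, adjusted p = 2.86e-07). Stc2 (-4.87), a secreted glycoprotein, and Cited1 (-4.54), a transcriptional coactivator, were lower by similar amounts. Itga2b, an integrin subunit, was higher by 1.53 (adjusted p = 0.00124). Greb1, an oestrogen target, was higher by 1.26 (adjusted p = 0.0313) and this call was lost on leaving out Lgr5+ basal replicate 1, where the difference was 0.98 (adjusted p = 0.117), or luminal replicate 2, where it was 0.74 (adjusted p = 0.0988).

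Of 18 milk and alveolar progenitor genes, 15 were lower, 1 higher and 2 (Csn2 and Lcn2) did not pass, with a median of -2.38 (-2.04 at the bounds, -1.57 without background correction). Kit, the stem cell factor receptor of luminal progenitors, had 7.50, 8.48 and 7.63 in Lgr5+ basal cells, against 12.52, 11.99 and 12.22 in luminal cells (-4.37, adjusted p = 5e-07). Aldh1a3, a retinaldehyde dehydrogenase, differed by -4.09 (adjusted p = 2.54e-06), the endotoxin coreceptor Cd14 by -3.89 and the milk fat globule protein Btn1a1 by -4.28, and the folate receptor Folr1 was at least 9.86-fold lower. The beta-casein gene Csn2 had 5.19, 4.52 and 4.53 in Lgr5+ basal cells, where it was not detected, and 11, 6.32 and 5.12 in luminal cells. The luminal arrays thus differed widely among themselves, and the Csn2 difference of -2.74 did not pass (adjusted p = 0.0856), although it did with the pool as a replicate block (adjusted p = 0.0214) and without luminal replicate 3 (-3.92, adjusted p = 0.0182). Csn1s1, an alpha-casein chosen after its values were seen, followed the same order, at 11.49, 8.52 and 6.80 in luminal replicates 1, 2 and 3. Glycam1 was the member on the basal side, with 10.83, 12.05 and 10.88 against 8.26, 9.39 and 7.96 (2.72, adjusted p = 0.000377).

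**Figure D3:**
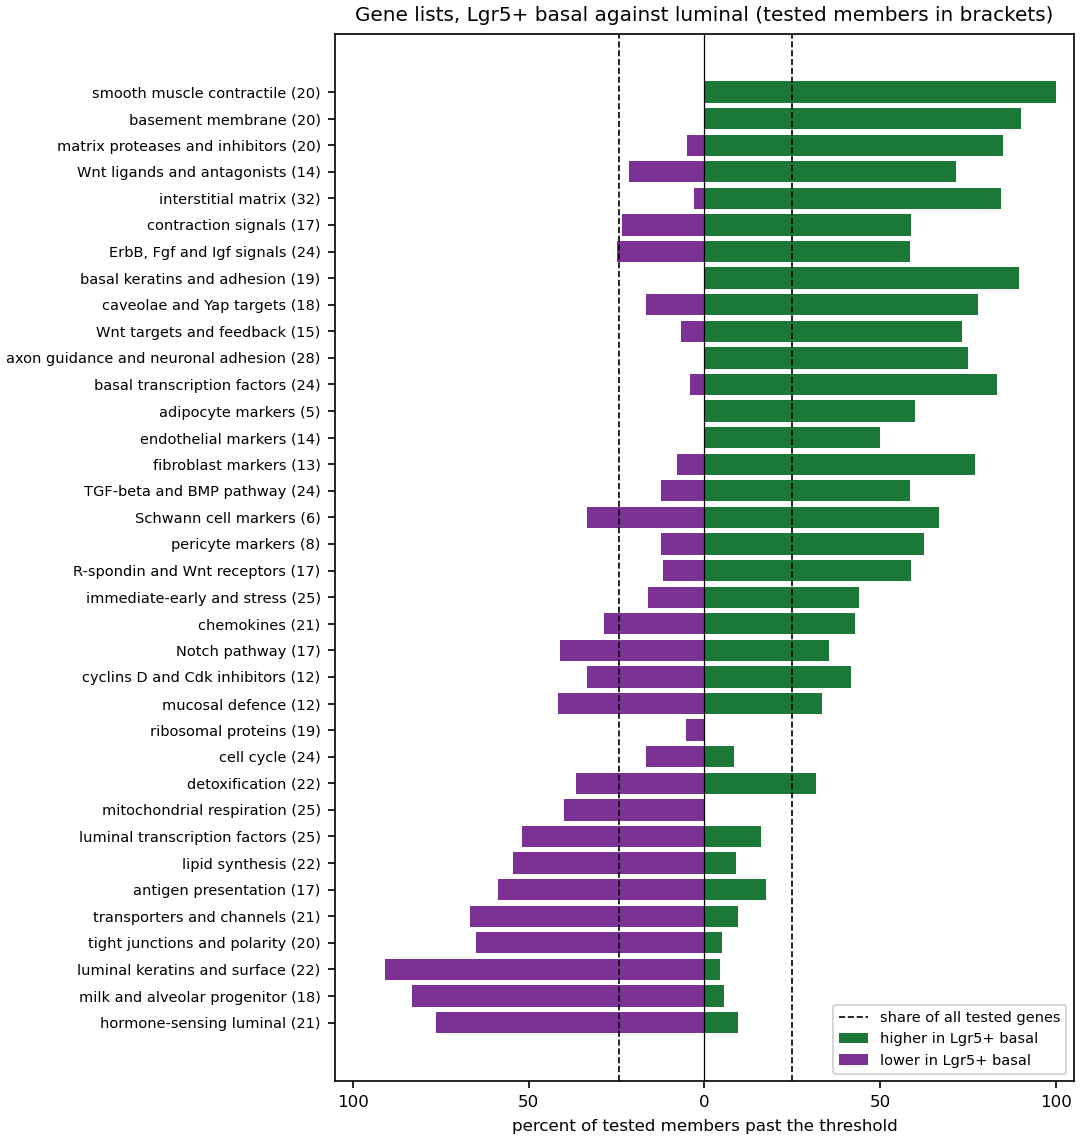
Share of tested members that passed the test in each of the 36 gene lists with at least 5 tested members, higher in Lgr5+ basal cells to the right and lower to the left, ordered by the median difference, with the number of tested members in brackets. Dashed lines mark the shares over all tested genes, 24.8% higher and 24.3% lower. All 20 smooth muscle genes are higher, and 20 of 22 luminal keratin and surface genes are lower.

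Lgr5 is the gene the sort is named for, so its level is not an independent result. It had 9.74, 9.79 and 10.62 in Lgr5+ basal cells and 4.72, 5.13 and 5.14 in luminal cells, where no array detected it, so that it was at least 23.3-fold higher (fitted difference 5.05, SE 0.284, adjusted p = 1.75e-07). Its mean in Lgr5- basal cells was 8.40, also above luminal cells (Lgr5- basal minus luminal 3.40, adjusted p = 3e-06). The difference between the basal sorts was smaller (Lgr5+ minus Lgr5- basal 1.65, adjusted p = 0.0215). Of 17 tested receptors for R-spondins and Wnt proteins, 10 were higher, 2 lower and 5 did not pass (median 0.85, 0.48 without background correction). Lgr5 itself is counted among the 10, a call that follows from the sort. Lgr6, a second R-spondin receptor, had 8.70, 8.65 and 8.51 against 6.55, 6.55 and 6.57 (2.06, adjusted p = 1.29e-06). The Wnt receptor Fzd3 was at least 7.45-fold higher, and Fzd7, a frizzled chosen after its values were seen, differed by 3.27. Ror2, a receptor for Wnt5a, was detected on no Lgr5+ basal array and was at least 4.44-fold lower (adjusted p = 5.08e-07), with 7.44, 7.59 and 7.71 in luminal cells. Fzd10 differed by -1.44 (adjusted p = 0.000155).

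Of 14 tested Wnt ligands and antagonists, 10 were higher, 3 lower and 1 (Wnt5a) did not pass (median 2.00, 1.68 at the bounds and 0.81 without background correction). The higher genes included the antagonists Sfrp1 and Wif1. Sfrp1 had 11.68, 11.35 and 11.94 in Lgr5+ basal cells and was undetected in luminal cells. Wif1, which binds Wnt proteins outside the cell, had 10.83, 10.61 and 11.05, against 4.78, 5.93 and 5.30, detected on 1 of 3 luminal arrays (5.49, adjusted p = 9.11e-08). The secreted glycoprotein Dkk3, also in the list, differed by 6.10 (adjusted p = 7.72e-08), with its other probes at 6.03 and 1.64. The ligands were split by group. Wnt10a (4.34) and Wnt6 (at least 2.72-fold), chosen after their values were seen, were higher in Lgr5+ basal cells. Wnt4, which acts downstream of progesterone, had 5.72, 6.08 and 4.87, against 9.73, 9.09 and 9.97 in luminal cells (-4.04, adjusted p = 1.83e-06), and Wnt7b had 5.41, 5.94 and 5.39, against 9.8, 10.35 and 9.93 (-4.45, adjusted p = 5.76e-08). Neither pair of groups overlapped. Wnt5b differed by -0.76 (adjusted p = 0.0105), and this call was lost with median centring (adjusted p = 0.0871) and within pools 1 and 2 (0.0892).

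Of 15 Wnt target and feedback genes, 11 were higher, 1 lower and 3 did not pass (median 1.59, 1.22 at the bounds and 0.65 without background correction). Lgr5, the gene of the sort, is counted among the 11. Luminal arrays detected 5 to 6 of the 15 and Lgr5+ basal arrays 12 to 14. For 8 of the 15 only a bound is known, so the share is partly set by the detection filter. Axin2, a feedback inhibitor and widely used readout, had 8.52, 8.51 and 8.60 in Lgr5+ basal cells, against 6.69, 5.71 and 5.09 in luminal cells (2.71, adjusted p = 4.34e-05). Nkd1, another inhibitor, was at least 10.6-fold higher, but its second probe differed by only 0.65 (adjusted p = 0.062 over probes). Tcf7, a transcription factor of the pathway, was at least 3.35-fold higher. Ccnd1, cyclin D1, was the member that ran the other way, with 9.94, 10.48 and 10.53 against 13.35, 13.06 and 13.27 (-2.91, adjusted p = 5.27e-07).

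The D cyclins were divided between the layers. Ccnd2 had 9.55, 9.34 and 9.65 in Lgr5+ basal cells, against 4.6, 5.53 and 5.68 in luminal cells, detected on 1 of 3 arrays (4.24, adjusted p = 6.48e-07), the opposite of Ccnd1. A further Ccnd2 probe differed by 1.22. Among 12 D cyclins, Cdk inhibitors and related genes, 5 were higher (3 without Lgr5+ basal replicate 1 and 3 without the pool 2 arrays of both groups), 4 lower and 3 did not pass. Ccnd3 (0.18), chosen after its value was seen, was one of the last. The Cdk inhibitor Cdkn1c differed by 1.90, Cdkn2b was at least 2.23-fold lower and Rb1, the retinoblastoma protein gene, differed by -1.40. Cell cycle genes showed little difference at the threshold, with 2 of 24 higher, 4 lower and 18 not past it (25.0%, against 49.1% of all genes). Mki67, a proliferation marker, had 8.43, 8.24 and 8.16 in Lgr5+ basal cells and 8.66, 7.84 and 7.11 in luminal cells (0.41, adjusted p = 0.392). Aurka, a mitotic kinase, differed by -1.73 (adjusted p = 0.000132). The count of lower members was 12 within pools 1 and 2, 9 without luminal replicate 3, 2 without luminal replicate 1 or Lgr5+ basal replicate 1, and 1 with median centring, against 4 with all arrays. The list's median level was 7.44, 7.73 and 8.18 on Lgr5+ basal replicates 1, 2 and 3, against 8.61, 8.25 and 7.57 on the luminal arrays.

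Of 17 tested genes of the Notch pathway, 6 were higher, 7 lower and 4 did not pass. The ligand Dll1 had 9.24, 9.14 and 9.74 in Lgr5+ basal cells, against 5.05, 6.07 and 4.72 in luminal cells, detected on 1 of 3 arrays (4.09, adjusted p = 1.37e-06), and Jag2 was at least 7.71-fold higher (adjusted p = 1.62e-07). The receptor Notch3 differed by -2.20 (adjusted p = 2.45e-05). The target genes Hey1 and Hes1 were lower, Hey1 at 9.84, 10.02 and 9.78 against 11.78, 11.39 and 11.87 (-1.80, adjusted p = 7.05e-06) and Hes1 at 9.14, 9.55 and 9.28 against 11.16, 10.75 and 11.08 (-1.68, adjusted p = 2.02e-05). The ligand Jag1 was higher by 1.27 (adjusted p = 0.0182), but did not pass when luminal replicate 1 or 2 (0.0747 and 0.0756) or Lgr5+ basal replicate 3 (0.0511) was left out.

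Of 24 genes of the TGF-beta and BMP pathways, 14 were higher, 3 lower and 7 did not pass (median 0.92). Fst, an activin antagonist, had 10.51, 10.35 and 10.02 in Lgr5+ basal cells, against 5.14, 5.72 and 4.87 in luminal cells, detected on 1 of 3 arrays (5.05, adjusted p = 6.47e-08). The ligand Bmp7 (4.53), the coreceptor Tgfbr3 (4.65) and Ltbp4 (4.95), which stores latent TGF-beta in the matrix, were also higher. Ltbp1, another latent TGF-beta binding protein, ran the other way (-2.54, adjusted p = 1.24e-05), as did the receptors Tgfbr2 (-1.02) and Bmpr1b (at least 1.61-fold lower). The ligand genes Tgfb1 (-0.16), Tgfb2 (-0.11) and Tgfb3 (0.19), chosen after their values were seen, did not pass.

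Growth factor genes of the ErbB, Fgf and Igf families were higher in 14 of 24 cases, lower in 6 and not past the test in 4 (median 1.74, 1.42 at the bounds and 0.77 without background correction). The ErbB ligands Areg (-4.38), Btc (at least 10.1-fold lower, adjusted p = 6.94e-08) and Epgn (-2.48, adjusted p = 0.00203) were lower in Lgr5+ basal cells. Erbb2, a coreceptor of the family, differed by -1.34, while the receptor Egfr, chosen after its values were seen, had 11.06, 10.88 and 10.84 in Lgr5+ basal cells and 8.56, 9.02 and 8.26 in luminal cells (2.31). The ligand Nrg1 (at least 3.35-fold) and the Met ligand Hgf (at least 5.14-fold), also chosen after their values were seen, were higher, and the receptor Met was at least 2-fold lower. Among binding proteins of insulin-like growth factors, Igfbp3 had 13.10, 13.08 and 13.03, against 5.44, 7.51 and 5.69 (adjusted p = 4.28e-07), and Igfbp2 was at least 12.1-fold higher. Fgfr2, a receptor needed for duct growth, was high in both groups and differed by -0.79, a call lost with median centring (adjusted p = 0.101).

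Matrix genes followed the contractile ones. Of 20 basement membrane genes, 18 were higher, 0 lower and 2 (Lama5 and Lamc3) did not pass (median 2.85). Hspg2, the proteoglycan perlecan, had 11.83, 11.95 and 11.90 in Lgr5+ basal cells, against 7.50, 7.31 and 6.97 in luminal cells (4.64, adjusted p = 2.1e-08). Col7a1, the anchoring fibril collagen, had 12.22, 12.19 and 11.42, against 5.74, 6.53 and 5.91 (5.88, adjusted p = 1.13e-07). The groups lay clear of each other for both genes. Of 32 interstitial matrix genes, 27 were higher, 1 lower and 4 did not pass (median 1.83, 1.70 at the bounds and 0.94 without background correction). Sparc, a collagen-binding glycoprotein, had 13.73, 13.96 and 14.18, against 7.91, 8.98 and 7.54 (5.81, adjusted p = 1.41e-07). The collagen VI chains parted: Col6a1 had 12.39, 11.92 and 12.29, against 6.62, 6.78 and 6.73 (5.49, adjusted p = 1.41e-08; 4.82 and 1.49 on its other probes), and Col6a2 was at least 9.01-fold higher. Col6a3, the third chain, had 8.40, 8.88 and 8.52 in Lgr5+ basal cells and 11.25, 11.19 and 12.01 in luminal cells (-2.89, adjusted p = 2.02e-06). It was measured by 1 probe. Proteases of the matrix and their inhibitors were higher in 17 of 20 cases and lower in 1 (median 2.08, 1.16 without background correction). Mmp2 had 13.04, 12.95 and 13.01, against 6.49, 7.0 and 6.19 (adjusted p = 1.05e-08), and the inhibitor Timp3 differed by 4.48. The plasminogen activator Plat differed by 5.84 and the procollagen protease Adamts2 by 4.69. Mmp15, a membrane-bound protease, differed by -3.28 (adjusted p = 8.18e-06).

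Axon guidance and neuronal adhesion genes, some of which also shape mammary ducts, were higher in 21 of 28 cases, lower in 0 and not past the test in 7 (median 1.55, 1.38 at the bounds and 0.69 without background correction). Slit2, a secreted guidance cue, had 8.34, 8.83 and 9.16 in Lgr5+ basal cells and was undetected in luminal cells (at least 9.63-fold, adjusted p = 1.46e-07). Sema5a had 10.78, 10.65 and 10.68, against 6.62, 7.14 and 6.15 (4.06, adjusted p = 1.64e-07), while 1 of its 3 probes differed by 0.20 (adjusted p = 0.57 over probes). Sema3b (at least 3.26-fold) and the synaptic adhesion gene Lrrtm1 (at least 6.2-fold) were higher as well. Among 18 caveolar and Yap-related genes, 14 were higher, 3 lower and 1 did not pass (median 1.63). Cavin1 (3.28) and Cavin3 (2.90), coat proteins of caveolae, and the receptor kinase Axl (5.38) were higher. The Tead genes, which encode DNA-binding partners of Yap, were divided: Tead1 had 10.97, 10.83 and 11.35 against 8.29, 8.43 and 8.25 (2.72), Tead2 had 9.08, 9.43 and 9.06 against 11.77, 10.94 and 11.80 (-2.31, adjusted p = 1.35e-05), and Tead4 was at least 1.14-fold lower.

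Defence genes were divided between the layers. Of 12 mucosal defence genes, 4 were higher, 5 lower and 3 did not pass. Of the whey acidic protein family, Slpi was on the basal side, and Wfdc2 was on the luminal side, with 11.27, 11.88 and 11.37 in Lgr5+ basal cells and 14.72, 14.66 and 14.79 in luminal cells (-3.22, adjusted p = 4.11e-07). The bacterial lipoprotein receptor Tlr2 differed by 2.15 and Cd14 by -3.89. Of 21 chemokine and cytokine genes, 9 were higher, 6 lower and 6 did not pass. Besides Cxcl14, Cxcl12, which attracts leukocytes, had 11.51, 11.45 and 11.43, against 6.76, 7.94 and 6.50 (4.40, adjusted p = 7.29e-07). Cxcl17 was at least 14.2-fold lower, Il33 differed by -2.08 and Il15 by -1.41. Of 17 antigen presentation genes, 10 were lower, 3 higher (5 without Lgr5+ basal replicate 3) and 4 did not pass (median -0.83). The immunoproteasome subunit Psmb8 had 8.79, 9.21 and 9.26, against 11.53, 11.30 and 11.54 (-2.38, adjusted p = 2.2e-06), and the peptide transporter Tap2 differed by -2.50. Cd74, the class II invariant chain, had 9.47, 9.37 and 8.43, against 6.46, 6.28 and 5.85 (2.90, adjusted p = 0.000184), H2-Ab1 differed by 1.71 (not past the test without the pool 2 arrays, adjusted p = 0.0611), and H2-Aa was at least 1.92-fold higher. The other Cd74 probes differed by 2.74 and 0.66 (adjusted p = 0.000248 and 0.0573 over probes). Those of H2-Ab1 differed by 0.94 and 0.85 (adjusted p = 0.0371 and 0.068 over probes). The class II chaperone gene H2-DMa was on the luminal side (-2.0).

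Transport and metabolism leaned to the luminal side. Of 21 transporters and channels, 14 were lower, 2 higher and 5 did not pass (median -1.36, -0.71 without background correction). The water channel Aqp5 had 8.74, 9.99 and 9.03 in Lgr5+ basal cells, against 13.98, 13.59 and 14.37 in luminal cells (-4.72, adjusted p = 5.01e-07), and the chloride channel protein Clic6 differed by -4.09. The cotransporter Slc12a2 differed by -2.11 and the potassium channel Kcnn4 was at least 4.67-fold lower. The calcium channel Trpv6 was at least 2.23-fold higher. Of 22 lipid synthesis genes, 12 were lower, 2 higher and 8 did not pass (median -0.78, -0.59 at the bounds and -0.27 without background correction). Dgat2, which makes triglycerides, had 8.44, 8.48 and 8.15, against 12.49, 11.77 and 12.97 (-4.05, adjusted p = 4.83e-07), and the desaturase Scd1 differed by -1.79. Detoxification genes ran both ways, with 7 of 22 higher (4 without Lgr5+ basal replicate 2) and 8 lower. Gpx3, a secreted glutathione peroxidase, differed by -3.79 and the transferase Gstt3 by -2.32, whereas the oxidase Cyp1b1 (2.13) and Gpx2 (2.72) were higher. Mitochondrial respiration genes were lower in 10 of 25 cases and higher in 0 (median -0.37), and 1 passed as lower with median centring, 5 without Lgr5+ basal replicate 1 and 6 without the pool 2 arrays. Of 19 ribosomal protein genes 18 did not pass, and Rps6, the exception (-0.69), did not pass with median centring or when replicate 1 or 2 of either group was left out. The list's median level was 14.41 to 14.48 in Lgr5+ basal cells and 14.47 to 14.52 in luminal cells, near the top of the intensities. Whether probes this bright could show a difference was not tested. Immediate-early and stress genes, which respond to tissue dissociation, were higher in 11 of 25 cases and lower in 4 (median 0.42, 0.06 without luminal replicate 2). The number lower was 2 without Lgr5+ basal replicate 2, without luminal replicate 3, within pools 1 and 2, or with median centring. Egr2 (3.40) and Gadd45b (2.77) were higher, Gadd45g (-1.36) and Jun (-1.0) lower, and Fos, chosen after its value was seen, differed by 0.04 (adjusted p = 0.811).

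Marker lists of other cells that a gate could hold were measured on the same arrays. Of 14 endothelial genes, 7 were higher in Lgr5+ basal cells and 0 lower (median 1.40, 0.76 without Lgr5+ basal replicate 2 and 0.78 without background correction). Their median level was 7.87, 9.14 and 6.81 on Lgr5+ basal replicates 1, 2 and 3, against 6.42, 7.23 and 6.08 on the luminal arrays. Lgr5+ basal replicate 2 was thus the highest array, and the number of higher genes was 4 without it (with 1 lower), 4 without luminal replicate 1 and 3 without luminal replicate 3. With arrays weighted in the fit, 12 of the 14 were higher, with a median of 2.38. Cdh5, the endothelial cadherin, had 7.40, 8.66 and 6.51, against 5.87, 5.83 and 5.15 (1.91, adjusted p = 0.00404). Its second probe differed by 0.85 (adjusted p = 0.121 over probes). Vwf (-0.85, adjusted p = 0.187) and Pecam1 (0.66, adjusted p = 0.162), chosen after their values were seen, did not pass. Of 13 fibroblast genes, 10 were higher and 1 lower (median 1.16, 0.98 at the bounds and 0.42 without background correction), with summed intensities of 1548 to 1922 on the Lgr5+ basal arrays and 683 to 786 on the luminal arrays. The receptor Pdgfra had 8.17, 7.79 and 7.94, against 6.29, 6.46 and 6.08 (1.69, adjusted p = 2.55e-05). Pericyte genes were higher in 5 of 8 cases and lower in 1, and the adhesion molecule Mcam differed by 3.84. Schwann cell genes were higher in 4 of 6 cases (2 without the pool 2 arrays) and lower in 2, with the myelin gene Pmp22 at 3.92, and the probes of Mbp disagreed (1.15 and -2.17). Of 5 adipocyte genes 3 were higher, among them adipsin (Cfd) at 8.08, 8.86 and 6.34 against 5.19, 4.46 and 5.43 (2.74, adjusted p = 0.0012). Of 4 haematopoietic genes, the T cell receptor chain Cd3e was at least 1.93-fold higher, and 3 did not pass. With arrays weighted in the fit, 3 of the 4 were higher. The added genes were Coro1a (1.16, adjusted p = 0.012) and Laptm5 (1.38, adjusted p = 0.00629). Neither of 2 haemoglobin genes passed, but under some alternatives they passed in opposite directions. Hba-a1 was lower with the pool as a replicate block (-1.86, adjusted p = 0.0153), and Hbb-b1 was higher without Lgr5+ basal replicate 3 (2.05, adjusted p = 0.00576). What part these cells played in the differences above was not tested.

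**Figure D4:**
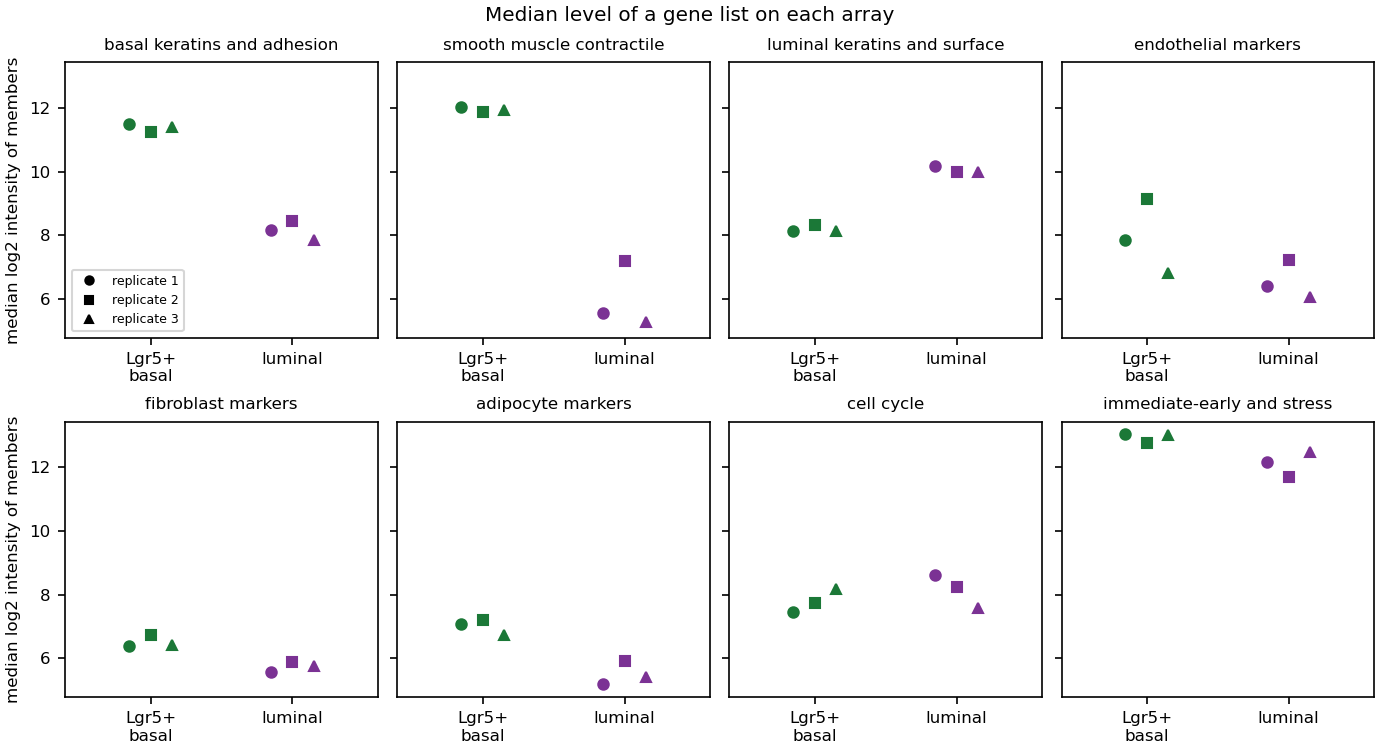
Median normalized log2 intensity of the members of 8 gene lists on each array, Lgr5+ basal arrays on the left and luminal arrays on the right of each panel, with symbols for the replicate. Basal keratin, smooth muscle, fibroblast, adipocyte and stress lists are higher on every Lgr5+ basal array, the luminal keratin list is higher on every luminal array, and the endothelial and cell cycle lists overlap between the groups.

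Within the basal layer the Lgr5+ sort can be placed beside the Lgr5- sort. Lgr5+ and Lgr5- basal cells differed in 1.05% of tested genes, and this comparison shares the Lgr5+ basal arrays with the one above. Tspan8, a tetraspanin of the cell surface, had 11.76, 11.52 and 11.98 in Lgr5+ basal cells, 8.22, 8.32 and 8.87 in Lgr5- basal cells and 9.6, 10.01 and 10.14 in luminal cells. The Lgr5+ basal arrays lay above both other groups (1.84 against luminal, adjusted p = 5.61e-05, and 3.28 against Lgr5- basal cells, adjusted p = 0.000314). Sfrp1 had 8.48, 8.83 and 9.08 in Lgr5- basal cells, between the levels of the other groups. Gli2, a transcription factor of Hedgehog signalling, was detected only on the Lgr5+ basal arrays of the 9, at 6.75, 6.67 and 7.04, with a level at least 2.48-fold that of luminal cells. Dclk1, a microtubule-binding kinase, had 7.77, 7.67 and 7.88 in Lgr5+ basal cells, against means of 6.14 in Lgr5- basal and 6.08 in luminal cells. Col6a1 averaged 12.20 in Lgr5+ basal, 10.57 in Lgr5- basal and 6.71 in luminal cells.

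Some genes of the Lgr5+ sort had levels between those of the other sorts. Uts2b, a urotensin peptide gene, had 6.03, 5.71 and 6.13 in Lgr5+ basal cells, 7.82, 8.28 and 8.44 in Lgr5- basal cells and no detected value in luminal cells (at least 1.36-fold higher than luminal). Tex36 and the sterol transporter Abcg5 had the same order, at means of 5.86 and 6.34 in Lgr5+ basal cells and 8.32 and 8.17 in Lgr5- basal cells. The call of Tex36 against luminal cells was lost without background correction (0.27, adjusted p = 0.0713). Iqgap2, a scaffold of the cytoskeleton, had 8.28, 8.45 and 8.19 in Lgr5+ basal cells, 6.99, 7.03 and 6.98 in Lgr5- basal cells and 9.43, 9.44 and 9.47 in luminal cells. Its arrays thus fell into 3 levels without overlap, with the luminal cells highest (Lgr5+ basal minus luminal -1.14, adjusted p = 6.19e-05, but -0.70 with an adjusted p of 0.0563 over probes on the second Iqgap2 probe). Myo5b, a motor of apical recycling (-0.61, adjusted p = 0.031), and the sodium pump subunit Atp1b1 (-2.14), chosen after their values were seen, had this order too. Ror2 was lowest in Lgr5+ basal cells, at 4.87, 5.05 and 4.65, followed by 6.65, 6.69 and 6.25 in Lgr5- basal cells.

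**Figure D5:**
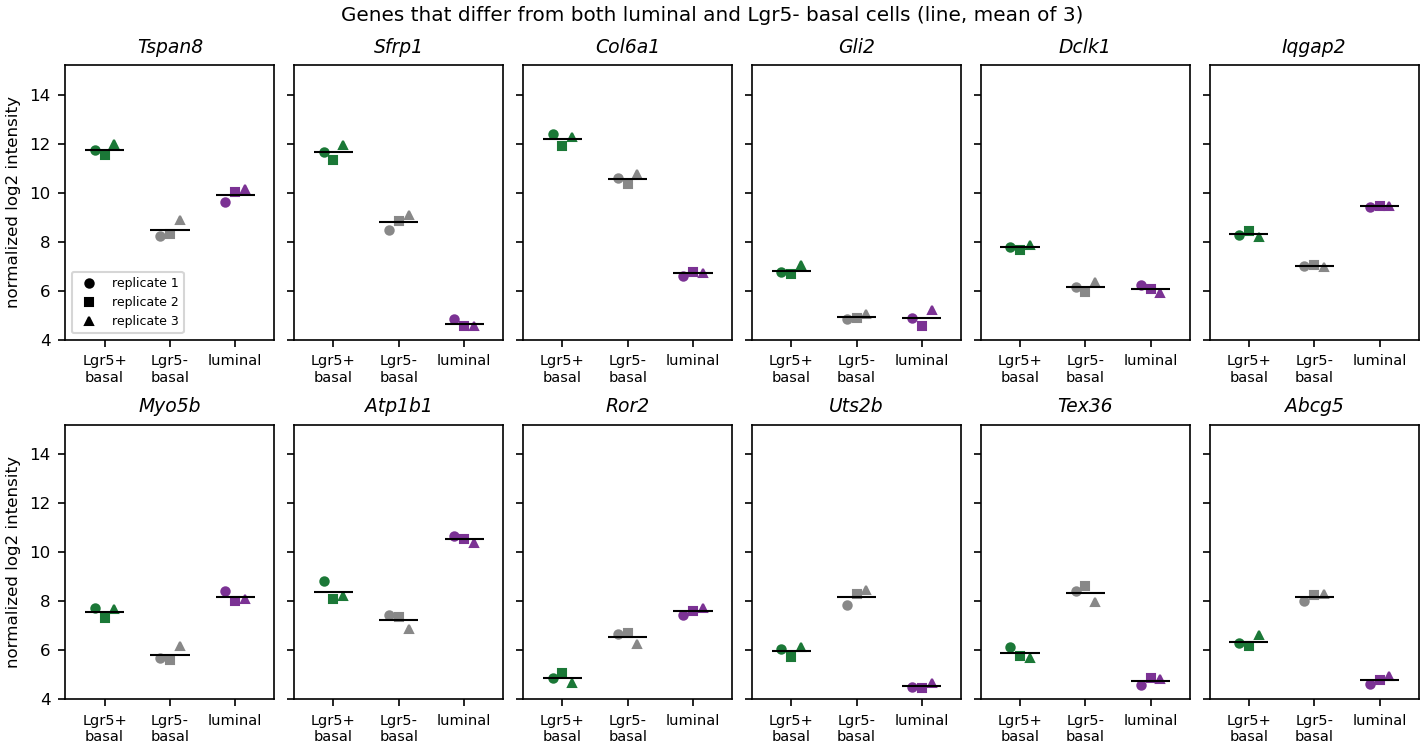
Normalized log2 intensity of 12 genes on each of the 9 arrays, with Lgr5+ basal, Lgr5- basal and luminal arrays from left to right in each panel, symbols for the replicate and lines for group means. Tspan8, Sfrp1, Col6a1, Gli2 and Dclk1 are highest in Lgr5+ basal cells, Iqgap2, Myo5b and Atp1b1 lie between Lgr5- basal and luminal cells, Ror2 is lowest in Lgr5+ basal cells, and Uts2b, Tex36 and Abcg5 are highest in Lgr5- basal cells.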

How the data were processed

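RNA of sorted cell pools was hybridised to Illumina MouseWG-6 v2.0 BeadChips, with 1 array for each of the 3 sorts of each of 3 pools. The deposited table holds summarised probe intensity without normalization and a detection fraction per probe, per the file headers; the fraction rises with signal, so 1 minus it was used as the detection p. The authors also deposited normalized log2 values, used as an alternative, made with GenomeStudio and limma, per the submitters' processing notes. Here intensities were corrected with normexp (offset 16) and quantile normalized. Probes detected (p under 0.01) on at least 3 of 9 arrays were kept, and a gene was represented by its brightest probe over the 9 arrays. Differences on further probes are given for some genes only. Alternatives changed the background correction, normalization, probe filter and choice, arrays, block and weights. limma 3.58.1 in R 4.3.3 was fitted to all 9 arrays, without a block; p-values were adjusted over the 12148 genes by the Benjamini-Hochberg method, with calls at an adjusted p under 0.05, and all adjusted p-values come from this fit unless said otherwise. The fit was tried on simulated data with 200 changed genes and independent arrays. Far more genes differed in the real data, whose arrays also shared pools, so the simulation does not measure the error rate here.

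Members and gene lists were chosen with earlier results of these data known. Named genes were the 20 with the largest difference each way among called genes whose groups did not overlap (leaving out clone, predicted-gene and accession-like names), the 4 with the smallest p in each list, list members called against the majority, landmark genes, and 10 genes called in both basal comparisons. Itga2, Plec, Synm, Cd81, Tjp1, Lcn2, Csn1s1, Fzd7, Wnt5a, Wnt10a, Wnt6, Ccnd3, Tgfb1, Tgfb2, Tgfb3, Egfr, Nrg1, Hgf, Lama5, Lamc3, Fos, Vwf, Pecam1, Myo5b and Atp1b1 were chosen outside this rule after their values were seen. The labels number the pools: deviations of arrays of 1 pool correlated with r of 0.092 to 0.146 (3 pairs), and those of different pools with -0.110 to 0.007 (6 pairs). Pools 1 and 2 shared 1 BeadChip and pool 3 lay on another. Promoters came from RefSeq (GRCm38.p6). The number of arrays limits the precision.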

Additional observations from a re-analysis of the deposited data

How the results depend on the processing

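Of the 238 named genes called, 171 kept their call and direction in each of the 22 alternatives that could test them, and 0 reversed in these. Many named genes were chosen for large differences or small p, so few reversals could occur among them. Among all called genes, the sign turned for 22 with the mean of a gene's probes. It turned for 8 on the probes the authors kept and for 1 with no filter on dim probes. The alternative restricted to probes the authors kept could not test 7 of the named genes. Across all genes, 5962 were called, 3493 of them by at least 2-fold. Without background correction the number of genes called and at least 2-fold was 1645. Median centring in place of quantile normalization called 4033 genes, 2269 higher and 1764 lower, so that 56.3% of calls were higher, against 50.4%. A test against a 2-fold difference called 1756 genes, 987 higher and 769 lower, all of them at least 2-fold; it asks for more by construction. Otherwise the cause of these shifts was not tested. Leaving out 1 array at a time gave 5084 to 5843 calls, 2558 to 2969 higher and 2526 to 2874 lower, and 3310 to 3747 at least 2-fold. Leaving out both pool 2 arrays, an alternative chosen after seeing the data, gave 4893. With the pool as a replicate block 6479 genes were called, 5904 of them shared with the 5962, and within pools 1 and 2 alone 5559. The block changed the calls of Csn2 and Hba-a1 as given above. Genes with signals near background have only bounds or depend on the background correction.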
